A study of Saccharomyces cerevisiae with 8 samples.

Results

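The loci described here are the places in the yeast genome where Rpb1 was found both after 6 h in galactose and before galactose was added. Rpb1 is the largest, catalytic subunit of RNA polymerase II. They were chosen by measured peak summit positions in 4 libraries. Each summit of 6 h replicate 1 was joined to its closest partner in 6 h replicate 2, at most 250 bp away, and their midpoint was a locus. It counted as kept when both 0 h replicates also had a summit within 500 bp of that midpoint. Of 809 loci found at 6 h, 438 were kept, 155 had a summit in 1 of the 0 h lists and 216 in neither. Presence in all 4 lists is therefore how the loci were chosen and is not a result. The choice did not read the scores or the gene annotation. It did require a called summit in every list, and the lowest scores of the lists were 2.00 to 2.16, so it may favour strong peaks. The choice bounded the distance between summits, but not the direction in which they differed along a gene.

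All samples came from strain AM1003 of Saccharomyces cerevisiae, grown overnight in YEP medium with raffinose. Their titles all label them WT (wild type). Galactose switches on the HO endonuclease in these cells through a GAL promoter (GAL::HO) and so produces a double-strand break. Chromatin was precipitated with an Rpb1 antibody after 6 h in 2% galactose and, as the baseline, from untreated cells at 0 h, with 2 replicates each. The stated interest of the series is polymerase on the genes of the template used in break-induced replication (BIR), and 4 input libraries belong to the design but were not analysed here. Every 6 h library had both galactose and the induced break, so the effects of sugar, break and time cannot be told apart. No label says whether the replicates came from separate cultures, and the spread between them may be technical.

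RNA polymerase II transcribes the protein-coding genes and most small nucleolar RNA (snoRNA) genes, and chromatin immunoprecipitation of Rpb1 marks where it sits on DNA. Polymerase is dense on genes that are transcribed often, such as those for ribosomal proteins, and it also slows near the ends of genes, where transcripts are cut and released. A summit is the position of highest signal in a peak, and in these lists it carries a score, which the authors' peak caller wrote on a −log10 scale as either a p or a q. Such a score depends on read depth, which is unknown here, so scores were compared only as percentiles within a library, with 100 the best.

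The 6 h lists held 1288 and 1074 summits in replicates 1 and 2, and the 0 h lists held 1186 and 1194. Kept loci took 34.0% and 40.8% of the 6 h summits and 36.9% and 36.7% of the 0 h summits. No summit belonged to more than 1 kept locus, and neighbouring kept loci lay a median of 16943 bp apart. Genes could be named on 8 of 16 chromosomes (II, V and XI to XVI), where the positions matched the R64 gene table. These chromosomes hold 266 of the kept loci and 478 of all 6 h loci. There a summit lay within 250 bp of 65 and 62 of 81 ribosomal protein genes in the 6 h libraries and of 68 and 72 in the 0 h libraries. On the other chromosomes at most 11 of 58 had one in any library. The build of the lists is not stated and the match was inferred, so distances to a gene end are uncertain, while distances between libraries are not affected. Positions are given as in the deposited lists. By chromosome, the kept share of 6 h loci ran from 9.09% on I to 72.7% on VI.

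Kept loci were more frequent among the better-scoring 6 h loci. A kept locus needed a called summit in every list, so this may be partly set by the choice and is given as a description. The 809 loci were ordered by mean percentile at 6 h and divided into 5 groups of near-equal size. In the group with the lowest percentiles, 49 of 162 were kept (30.2%). The share was 45.7% in the next group, 58.4% in the middle one, 69.1% in the fourth and 67.3% in the highest. The highest group thus held no larger share than the one below it, and 21 of its 162 loci had no summit in either 0 h list.

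**Figure D1:**
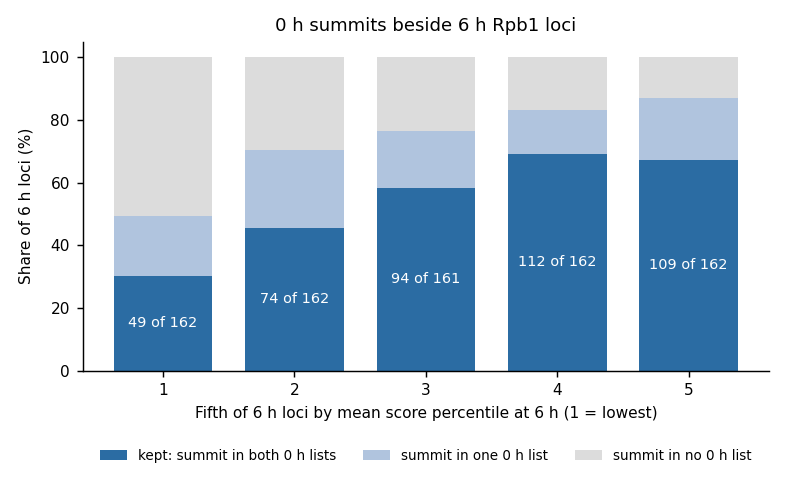
Share of 6 h loci (vertical axis, %) with a summit in both, 1 or neither 0 h list, for 5 groups of the 809 loci ordered by mean score percentile at 6 h (horizontal axis, lowest group first). The kept share is 30.2% in the lowest group and 67.3% in the highest.

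Among kept loci the median score percentile was 71.1 and 65.5 in 6 h replicates 1 and 2, against 69.0 and 69.0 in 0 h replicates 1 and 2. The libraries overlapped, with a difference in means of −0.69 points (exact permutation test over the 4 libraries, two-sided, p = 1; 2 libraries against 2 cannot give a p below 0.333). For comparison, 6 h loci with no 0 h summit had medians of 47.9 and 37.5 in the 6 h libraries. Those with a summit in 1 of the 0 h lists had 61.3 and 52.7. The differences between these classes of loci may also be partly set by the choice. Of the 100 best summits of each library, 57 and 55 lay in kept loci at 6 h, against 65 and 63 at 0 h.

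Ribosomal protein genes had loci on both sides of the 500 bp limit. Just inside it was the locus beside RPL25, encoding a large-subunit ribosomal protein, with its farther 0 h summit 482 bp away. Just outside were the loci beside RPL23B, of the large subunit, at 511 bp, and beside RPS6B, of the small subunit, at 512 bp. Both 0 h summits lay within 50 bp of the locus in 87 of 438 cases, within 100 bp in 179 and within 250 bp in 312.

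Replicates placed the summit of a kept locus a median of 49 bp apart at 6 h and 65.5 bp apart at 0 h, against 78 to 86 bp for the 4 pairings of a 6 h with a 0 h library. These distances are partly set by the choice of loci, which held the 6 h replicates within 250 bp of each other and the 0 h summits within 500 bp of the midpoint, and are given as a description. The choice did not use the score percentiles directly. They differed by a median of 6.49 points between the 6 h replicates and 5.73 between the 0 h replicates, and by 9.68 to 11 points across the times. Spearman's rho over the 438 loci was 0.915 between the 6 h replicates, 0.894 between the 0 h replicates and 0.733 to 0.771 across the times, given as a description of loci that share libraries.

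The loci with the highest percentiles in all 4 libraries included several ribosomal protein genes. Of all kept loci the highest lay at 115557.5 bp on chromosome X, where genes could not be placed, with scores of 94.1 and 149 at 6 h, against 108 and 129 at 0 h. CCW12, which encodes an abundant cell wall mannoprotein, followed with scores of 81.6 and 145 at 6 h, against 116 and 128 at 0 h. RPL9B, a large-subunit ribosomal protein gene, had scores of 81.4 and 118 at 6 h, against 111 and 118 at 0 h. These stood in the top 2% of every list.

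RPS31 encodes a small-subunit ribosomal protein fused to ubiquitin. Its scores were 80.5 and 112 at 6 h, against 93.7 and 107 at 0 h. The locus assigned to ADE16, an enzyme gene of purine synthesis, lay inside SNR30, a snoRNA needed for processing of small-subunit ribosomal RNA. It scored 72.8 and 124 at 6 h, against 92.6 and 110 at 0 h, and all 4 summits fell between 199346 and 199360 bp on chromosome XII. The locus inside MTC7, within 250 bp past the end of HYP2, the gene for the translation factor eIF5A, scored 62.6 and 88.6 at 6 h, against 102 and 95.3 at 0 h. RPL9B, RPS31, ADE16 and MTC7 were among the 10 highest of the loci with 1 assigned gene only. The others of these 10 included RPS9A, RPS3, RPS26B and RPL36B, all ribosomal protein genes. The last were the locus inside RAD17 and beside RPS12, and the one beside DFR1 and SNR17A, a gene for the U3 snoRNA. Some kept loci outside this list stood higher than RPL36B, such as the one at 680319 bp on chromosome II.

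A locus was called higher when both 6 h percentiles lay above both 0 h percentiles, and lower in the opposite case. Of the 438 kept loci 121 were higher (27.6%), 141 were lower (32.2%) and 176 overlapped. On the 8 chromosomes with gene names, 81 of 266 were higher (30.5%) and 79 lower (29.7%), which is the background for the gene groups below. The median rank change, 6 h minus 0 h, was −0.53 points over all kept loci, with quartiles of −10.0 and 7.98. It was −2.73 points without 6 h replicate 1 and 0.18 points without 0 h replicate 1, so its sign depended on the libraries used. With the loci divided into 3 groups by mean percentile, the spread was smallest at the top. In the highest group the replicates differed by medians of 3.02 points at 6 h and 2.05 at 0 h, and the times by 4.22. In the lowest group the same values were 12.4, 14.1 and 17.7 points.

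**Figure D2:**
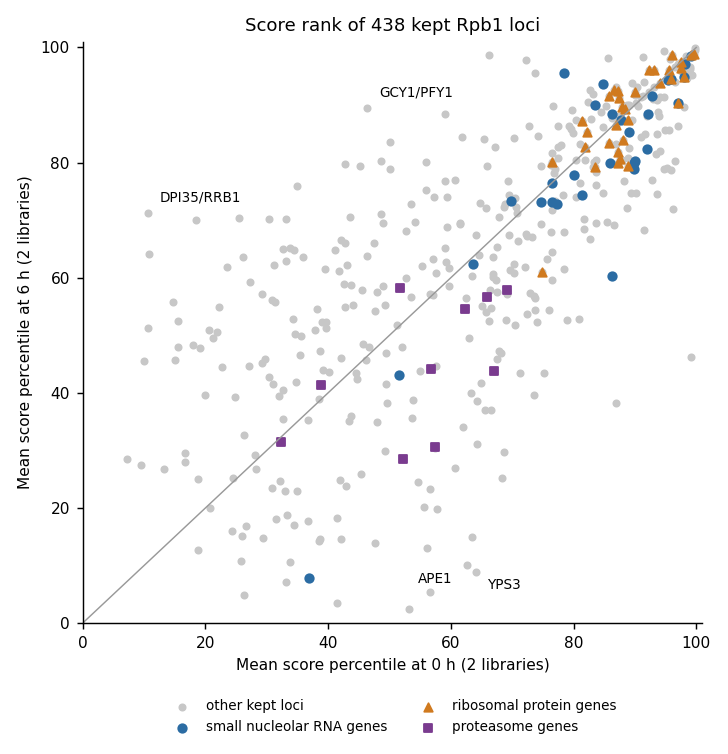
Mean score percentile of the 438 kept loci at 6 h (vertical axis) against 0 h (horizontal axis), each the mean of 2 libraries, with the line of equal rank. Loci beside ribosomal protein and most snoRNA genes lie at the upper right, proteasome loci lie lower, and DPI35/RRB1 (60.7 points higher) and YPS3 (55.2 points lower) lie far from the line.

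Changes of at least 20 points with no overlap were seen at 49 loci that were higher and 45 that were lower. The largest was inside DPI35 and within 250 bp past the end of RRB1, the gene for a chaperone that helps assemble ribosomal protein L3. Its scores were 17.2 and 19.2 at 6 h, against 3.45 and 3.55 at 0 h. This placed it at the 73.7 and 68.9 percentiles at 6 h and the 10.5 and 10.8 percentiles at 0 h, a change of 60.7 points, while its mean position moved by 32 bp only. Both 0 h scores lay close to the lowest of the 0 h lists, 2.03 and 2.16.

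The locus at 44833 bp on chromosome V lay inside PCM1, which encodes an enzyme that makes the precursor of chitin. It was also within 250 bp of SDD1. The percentiles were 44.0 and 67.7 at 6 h, against 4.97 and 24.5 at 0 h, a change of 41.1 points. SUR7, which encodes a membrane protein of eisosomes, had scores of 21.2 and 27.9 at 6 h, against 4.48 and 6.75 at 0 h, and its percentile was 40.9 points higher. SYH1 was 40.7 points higher. The 0 h scores were likewise low at PCM1 (2.92 and 4.57) and SYH1 (3.87 and 3.01). YMC2, which encodes a mitochondrial carrier, was 34.2 points higher, and MCH5, the riboflavin transporter gene, 31.6 points higher. At YMC2 the 0 h replicates themselves stood far apart, at the 23.9 and 66.5 percentiles, and the change was 12.9 points without 0 h replicate 1 and 55.4 without 0 h replicate 2.

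The lower group was led by YPS3, an aspartic protease gene of the cell surface, with scores of 3.65 and 2.22 at 6 h, against 9.91 and 13.1 at 0 h. Its percentile fell by 55.2 points. APE1, which encodes a vacuolar aminopeptidase, had scores of 3.53 and 3.25 at 6 h, against 11.8 and 10.1 at 0 h, and its percentile fell by 52.6 points. Both lay close to the authors' lowest reported scores at 6 h. CUZ1, at −51.2 points, and COX12, which encodes a subunit of cytochrome c oxidase, at −50.8 points, were likewise near the bottom of the 6 h lists. GFD1, a gene linked to mRNA export, was 34.0 points lower and MOT3, which encodes a zinc-finger repressor, 33.3 points lower. The 6 h replicates of MOT3 stood far apart, at the 42.4 and 4.24 percentiles, and the change was −52.4 points without 6 h replicate 1 and −14.3 without 6 h replicate 2.

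A pair of loci with high ranks at 0 h and lower ranks at 6 h are named here after their values were seen. The locus at 1159236.5 bp on chromosome IV, where genes could not be placed, scored 7.06 and 8.02 at 6 h, against 96.6 and 101 at 0 h. It stood at the 49.2 and 43.2 percentiles at 6 h, against 99.1 and 99.2 at 0 h. Its 6 h summits lay at 1159226 and 1159247 bp and its 0 h summits at 1159426 and 1159631 bp, so the summits of the times did not overlap. The other locus was beside TOS6 on chromosome XIV, with scores of 8.78 and 4.67 at 6 h, against 39.0 and 34.5 at 0 h.

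Large changes were also seen at sites shared by several gene ends or on chromosomes without gene names, again named after their values were seen. Beside YLR112W the scores were 21.8 and 14.7 at 6 h, against 3.25 and 4.95 at 0 h, and the percentile was 51.6 points higher. Beside RPB11, which encodes another subunit of RNA polymerase II, they were 11.1 and 13.7 at 6 h, against 5.14 and 3.94 at 0 h, 38.3 points higher. The site between FCY1, the cytosine deaminase gene, and YPR063C was 39.8 points higher. On the lower side, the site beside PEX13, of peroxisomal import, changed by −43.2 points, with scores of 3.05 and 4.30 at 6 h, against 10.4 and 7.27 at 0 h. The site between MIX17 and AIM34, both mitochondrial, changed by −38.9 points.

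**Figure D3:**
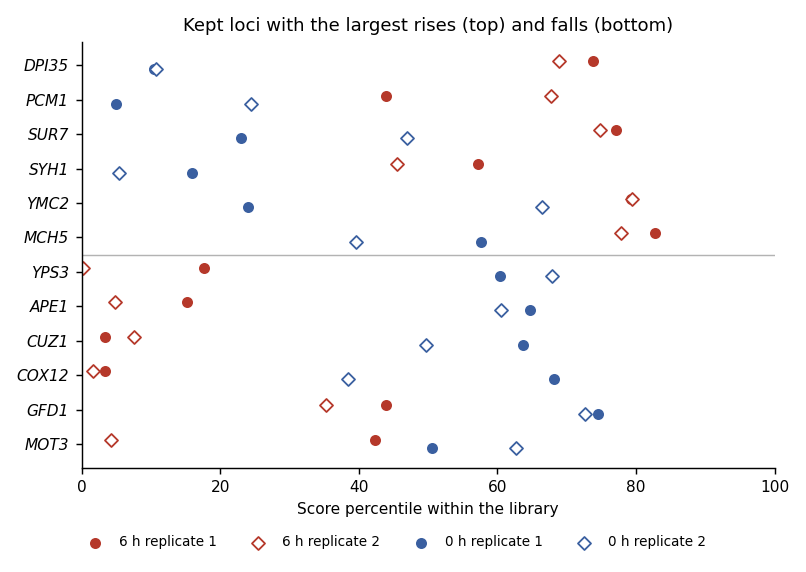
Score percentile within each of the 4 libraries (horizontal axis) at 6 rises (above the line) and 6 falls (below it). These are the largest without overlap among loci with 1 assigned gene, and some other loci changed more. Red symbols are 6 h and blue symbols 0 h, circles are replicate 1 and diamonds replicate 2. The 6 h symbols lie to the right of the 0 h symbols for DPI35 and to the left for YPS3.

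The position of the loci relative to genes was not used in the choice. Of the 266 kept loci with a gene table, 112 lay inside a protein-coding gene (42.1%), 78 between convergent genes (29.3%), 64 between tandem genes (24.1%) and 12 between divergent genes (4.51%). Loci with no 0 h summit lay inside genes in 55.3% of 123 cases and between convergent genes in 20.3%. Loci with a summit in 1 of the 0 h lists lay inside genes in 38.2% of 89 cases and between convergent genes in 36.0%. At convergent sites, which lie past the ends of both genes, 29 of 78 kept loci were higher and 16 lower, with a median change of 3.22 points. Inside genes 35 of 112 were higher and 37 lower, with a median of −0.85 points. Of the placed loci with changes of 20 points or more, 16 of 36 that were higher and 5 of 27 that were lower were convergent.

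A gene was said to have a kept locus when one lay in it or within 250 bp, a window chosen after values were seen. By this rule 309 of 3432 protein-coding genes had one (9.00%). The assignment of single genes reached further, to 500 bp. The loci assigned to COX12, HHF1 and NCW1 and a second one of EFT1 lay beyond the 250 bp window and are not in these counts. The shares in gene lists ranged widely. The lists were chosen with earlier results of these data known, and ribosomal protein, translation factor, glycolytic and snoRNA genes had also served to select the 8 chromosomes, so their counts are not independent of that step.

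**Figure D4:**
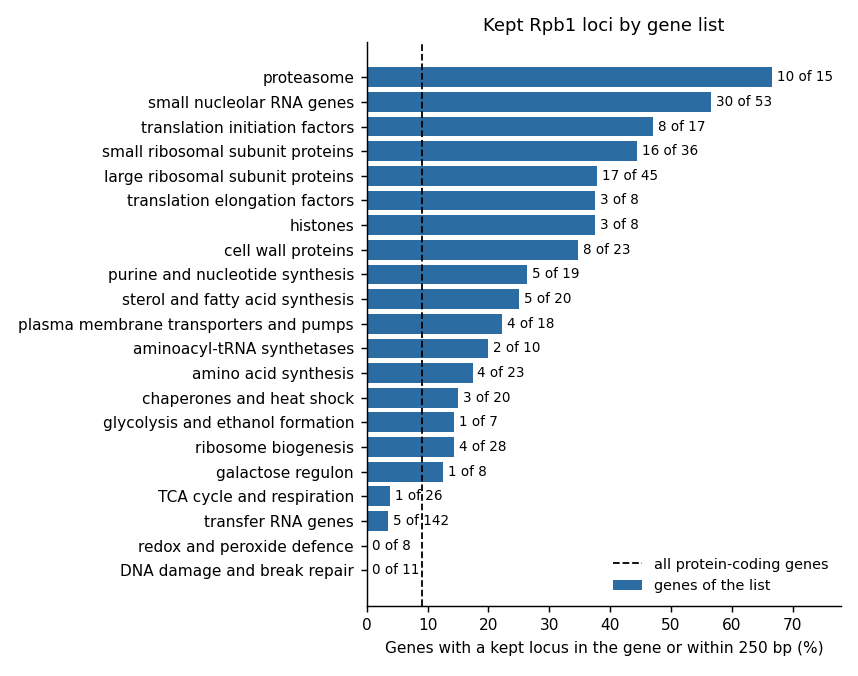
Share of placed genes in each of the 19 protein-coding lists and the snoRNA and tRNA genes with a kept locus in the gene or within 250 bp (horizontal axis, %), with counts beside the bars and the share of all protein-coding genes (9.00%) as the dashed line. Proteasome (10 of 15), snoRNA (30 of 53) and initiation factor genes (8 of 17) have the longest bars, and redox and DNA damage genes have none.

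Ribosomal protein genes make up the largest protein-coding group. Of 81 placed, 33 had a kept locus, 17 of 45 for the large subunit and 16 of 36 for the small subunit. Of these loci 8 were higher, 9 lower and 16 overlapping, with a median rank change of −0.29 points. RPL3, encoding a large-subunit protein, was among those higher, with scores of 87.0 and 104 at 6 h, against 65.7 and 66.5 at 0 h. RPS28A, of the small subunit, had the largest fall of the group, 13.9 points, with scores of 13.8 and 10.7 at 6 h, against 16.9 and 22 at 0 h. Many ribosomal proteins have a near-identical second copy, and how reads shared by copies were handled is not given in the sources used here.

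At most of these genes the summits lay further along the gene at 6 h. Displacement was taken along the direction of transcription, 6 h minus 0 h, and is positive further downstream. At 21 of the 33 loci the pair of 6 h summits was downstream of the 0 h pair, at 2 it was upstream, and at 10 the pairs overlapped. The median displacement was 159 bp. Over all 313 pairs of a gene and a kept locus within 250 bp, 28.8% were downstream and 17.3% upstream. Both subunits showed it, with 11 of 17 downstream and 0 upstream for the large subunit and 10 of 16 downstream and 2 upstream for the small subunit. Some downstream loci also lay within 250 bp of another gene, such as RPL43A with THP3, RPS30B with LAS17 and RPS23B with SPN1. The RPS12 locus lay inside RAD17, along which the same shift ran 97 bp upstream.

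At RPL25 the 6 h summits lay at 81440 and 81402 bp of chromosome XV and the 0 h summits at 80939 and 80942 bp. Replicates lay close together and the times 480.5 bp apart, near the most that the choice of loci allows. At 6 h the summits lay 392 bp downstream at RPL22A and 388 bp downstream at RPL14A, both large-subunit genes, and 410.5 bp downstream at RPS21A, of the small subunit. The 2 exceptions were RPS26B, 439 bp upstream, and RPS9A, 124 bp upstream. The RPS26B locus also lay beside the snoRNA gene SNR4. With 0 h summits required within 250 bp, 16 ribosomal protein genes had a kept locus and 8 of them were downstream, and with 1000 bp the counts were 54 and 39.

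**Figure D5:**
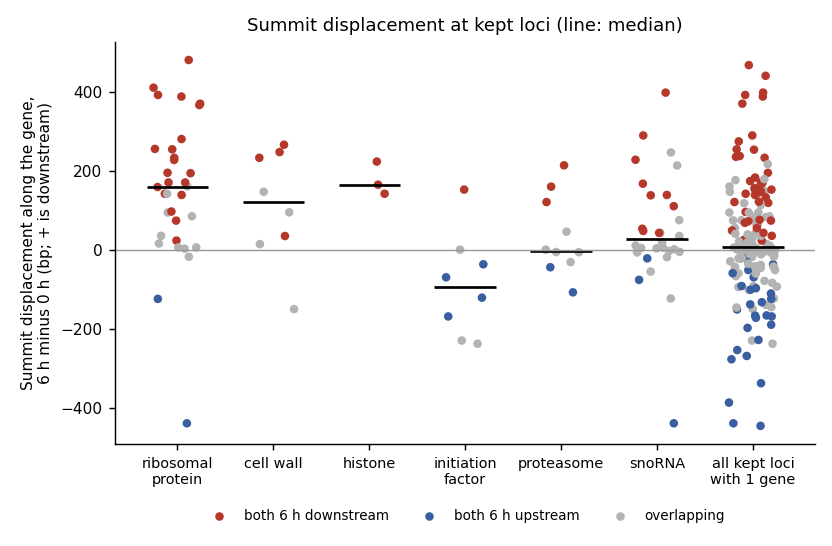
Summit displacement along the gene, 6 h minus 0 h (vertical axis, bp), at kept loci of 6 gene lists and at all 154 kept loci with 1 assigned gene. Points are loci, red where the 6 h pair is downstream of the 0 h pair, blue where both are upstream and grey where they overlap. Lines are medians, 159 bp for ribosomal protein genes and 6 bp for the loci with 1 assigned gene.

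Over the 154 kept loci with a single assigned gene, the median displacement was 6 bp, with 43 downstream (27.9%), 27 upstream (17.5%) and 84 overlapping. Without 1 library the median was 9 to 17 bp, and with 0 h summits within 250 bp it was 1 bp. Per library, the median position relative to the mean of the 4 was 7.38 and 12 bp at 6 h and −12.4 and −0.88 bp at 0 h. The 6 h values lay above the 0 h values, by 16.3 bp (exact permutation test, two-sided, p = 0.333, the smallest possible). Spearman's rho between rank change and displacement over these loci was −0.126, a description of loci that share libraries.

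Among the 154 loci with 1 assigned gene, the largest downstream displacement was at ROX1, which encodes the repressor of hypoxic genes. Its 6 h summits lay at 680757 and 680531 bp of chromosome XVI and its 0 h summits at 680170 and 680183 bp, 467.5 bp apart on average. Its scores were 30.7 and 66.2 at 6 h, against 14 and 7.16 at 0 h. Next among them was NCW1, at 440.5 bp downstream, with scores of 35.7 and 45.9 at 6 h, against 72.7 and 74.0 at 0 h. NVJ2, of the contact between nucleus and vacuole, was 398 bp downstream, and its locus also lay beside SNR51. Their largest upstream displacements were at DSC3, of a Golgi ubiquitin ligase complex, at −445.5 bp, RPS26B at −439 bp and FOL1, of folate synthesis, at −386.5 bp.

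The snoRNA genes, whose products guide modification and processing of ribosomal RNA, were often beside kept loci. Of 53 placed, 30 had a kept locus. Such loci made up 30 of 266 kept loci (11.3%), 1 of 123 with no 0 h summit (0.813%) and 1 of 89 with a summit in 1 of the 0 h lists (1.12%). In 27 of the 30, all 4 libraries stood above the 60th percentile, against 110 of 266 kept loci in all (41.4%). Transfer RNA genes, which another polymerase transcribes, had a kept locus in 5 of 142 cases. Of the snoRNA loci 12 had no protein-coding gene within 250 bp, 7 lay inside one and 3 were also beside a ribosomal protein gene.

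Of the 30 snoRNA loci 14 were lower at 6 h, 3 higher and 13 overlapping, against backgrounds of 29.7% lower and 30.5% higher among placed kept loci. The median change was −2.60 points. SNR64, a guide snoRNA, scored 11.4 and 12 at 6 h, against 40.0 and 32.7 at 0 h, and its percentile fell by 26 points. SNR161 fell by 29.0 points, with low scores of 2.06 and 4.16 at 6 h, against 6.95 and 4.70 at 0 h. SNR17B, a gene for U3, was 17.2 points higher and scored 73.9 and 65.1 at 6 h, against 21.3 and 26.7 at 0 h. SNR17A, the other U3 gene, overlapped, with 53.4 and 125 at 6 h, against 89.9 and 82.5 at 0 h. The U3 copies are nearly identical, so their reads may not be separable. SNR53 (8.87 points) and SNR86 (6.39 points) were the other higher loci.

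The snoRNA genes with any summit within 250 bp numbered 35 and 32 at 6 h, against 41 and 41 at 0 h. Among the 23 without a kept locus, 5 had a summit in both 0 h lists and neither 6 h list (SNR77, SNR76, SNR24, SNR70 and SNR41), 2 had the opposite pattern (SNR73 and SNR72), and 3 had none in any list.

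Proteasome genes, which encode the protease complex that degrades ubiquitin-tagged proteins, had a kept locus in 10 of 15 cases. These were weak loci, with mean percentiles of 28.6 to 58.2 at 6 h and 32.3 to 69.2 at 0 h. In 9 of the 10 the locus lay past the stop codon, and none was higher while 4 were lower (PRE1, RPN8, PRE10 and PRE2), with a median of −10.2 points. PRE2, of the catalytic core, had scores of 4.73 and 5.35 at 6 h, against 7.18 and 8.45 at 0 h. RPN8, of the regulatory lid, had 8.60 and 6.23 at 6 h, against 13.5 and 12.2 at 0 h. The loci of RPN8 and PRE10 were also those of GCD1 and PRT1, both translation initiation factor genes. With the better-scoring 50% of summits, 1 proteasome gene kept a locus, and the count without the 250 bp margin was also 1.

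Translation initiation factor genes had kept loci in 8 of 17 cases, 3 of them lower and none higher, with a median of −5.08 points. Of these 3 lower loci, those of GCD1 and PRT1 were already counted as lower proteasome loci. TIF34, which encodes a subunit of eIF3, changed by −13.2 points, with scores of 19.2 and 14.2 at 6 h, against 32 and 24.8 at 0 h. Both 6 h summits lay upstream at 4 of the 8 and downstream at 1, unlike the ribosomal protein genes, and the difference between the lists was not tested. The GCD1 locus is among these 4, and along RPN8, which shares it, the same shift ran downstream. Elongation factor genes had 3 of 8, with HYP2 and TEF4 lower and EFT1 overlapping. The second EFT1 locus, beyond the window, was lower and changed by −13.8 points.

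Among genes of sugar use the counts were near the 9.00% of all protein-coding genes. In glycolysis 1 of 7 had a kept locus, FBA1, which encodes aldolase. Its scores were 73.9 and 108 at 6 h, against 33.9 and 34.7 at 0 h, 12.6 points higher. In the galactose regulon 1 of 8 did, GCY1, an aldo-keto reductase gene, at a site shared with PFY1, the profilin gene. Its scores were 40.5 and 54.2 at 6 h, against 6.42 and 7.21 at 0 h, a change of 43.1 points. The 6 h values lay above the 0 h values at both loci.

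Ribosome biogenesis genes had 4 kept loci of 28, 3 higher and 1 lower. RPA135, which encodes the second-largest subunit of RNA polymerase I, scored 38.3 and 34.0 at 6 h, against 7.02 and 7.83 at 0 h, at a site shared with SUT2. RRB1 is described above, and RLP7 was 14.3 points higher. The locus in UTP20 was 14.3 points lower, and its summits moved 337.5 bp upstream along UTP20. It also lay within 500 bp of HTA2, a histone gene. Its 0 h summits were at 235434 and 235377 bp and its 6 h summits at 235098 and 235038 bp. Which gene the summits of each time belong to was not tested.

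Cell wall genes had 8 of 23, with 4 higher and 4 lower and none overlapping. The higher ones were UTH1 by 21.9 points, TIP1 by 19.2, SUN4 by 18.6 and GAS3 by 12.2. UTH1 scored 59.7 and 76.4 at 6 h, against 14.7 and 22.5 at 0 h. Of the lower ones, CCW14 changed by −16.8 points and PIR1 by −12.4, but CWP2 by only −3.86 and CCW12 by only −0.32. CCW14 scored 7.87 and 17.2 at 6 h, against 21.5 and 21.4 at 0 h. At the 4 lower genes the summits also lay downstream at 6 h, by 266 bp at CCW14, 248 bp at CWP2, 233 bp at PIR1 and 35 bp at CCW12. The UTH1 locus also lay within 250 bp of SHB17, and the CCW14 locus within 250 bp of ART10.

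Histone genes had 3 of 8, all with 6 h summits downstream. All 3 loci lay between convergent genes and also within 250 bp of the opposing gene, ECM15 at HTB2, IPP1 at HHT1 and KTR5 at HHF2. Along those neighbours the same shifts ran upstream. Another locus, assigned to HHF1 from beyond 250 bp, changed by −15.8 points and is not in this count. HHF2, for histone H4, scored 38.3 and 27.6 at 6 h, against 54.4 and 52.0 at 0 h. HHT1, for histone H3, scored 39.5 and 35.5 at 6 h, against 49.8 and 43.3 at 0 h. Both were lower, whereas HTB2, for histone H2B, overlapped, with 30.5 and 19.1 at 6 h, against 26.1 and 37.9 at 0 h.

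Of the amino acid synthesis genes 4 of 23 had a kept locus. SER3, for an enzyme of serine synthesis, scored 45.3 and 49.3 at 6 h, against 81.9 and 88.0 at 0 h, 8.39 points lower. Nucleotide synthesis genes had 5 of 19. URA5, of pyrimidine synthesis, was 30.6 points higher, with scores of 7.24 and 7.68 at 6 h, against 3.50 and 4.07 at 0 h, and RNR1, the large subunit of ribonucleotide reductase, overlapped, with 27.2 and 27.4 at 6 h, against 20.8 and 22.7 at 0 h. In the list of the TCA cycle and respiration 1 of 26 genes had a kept locus within 250 bp, ATP15, of the ATP synthase, at a site shared with MDL2. It stood at the 30.7 and 56.1 percentiles at 6 h, against 74.7 and 75.5 at 0 h. The COX12 locus described above lay beyond 250 bp and is not in this count. Sterol and fatty acid genes had 5 of 20, chaperones 3 of 20, transporters 4 of 18 and aminoacyl-tRNA synthetases 2 of 10. None of 8 redox genes and none of 11 genes of DNA damage and break repair had one.

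Chromosome III carries the break in this system, and its genes could not be placed here. It held 28 loci at 6 h, of which 13 were kept. Left of 200000 bp, 12 of 18 were kept, and right of it 1 of 10, where 8 had no 0 h summit and 1 had a summit in 1 of the 0 h lists. Whether that line marks the copied arm is not known. The kept locus on the right, at 287783 bp, scored 52.1 and 88.5 at 6 h, against 98.7 and 103 at 0 h. It stayed among the best-ranked 6% of every list, though both 6 h percentiles, 94.5 and 96.0, lay below the 0 h ones of 99.4 and 99.3. Of the 12 on the left, 1 was higher, 5 were lower and 6 overlapped.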

How the data were processed

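Rpb1 chromatin immunoprecipitation gave 4 summit lists, 1 per library, from 8 samples (the 4 inputs were not analysed here). The deposited score is a −log10 value as the authors' peak caller wrote it. Whether it stems from p or q, the threshold, the use of inputs, the handling of multiply mapped reads and the genome build were not given in the sources used here. Tools listed per the submitters' processing notes, without their roles, are MACS2 2.2.7.1, SAMtools 1.10, fastp 0.20.1 and Bowtie2 2.2.4. Read depth is unknown, and scores were not normalized between libraries.

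Computed here, with Python 3.11.15, numpy 2.4.6, pandas 2.3.3, scipy 1.17.1 and matplotlib 3.10.9, were the loci, score percentiles within each library (average rank for ties), rank changes and displacements. A locus was assigned the protein-coding gene whose body held it, or the only gene end within 500 bp; strand came from the locus tag, and names from the RefSeq table of assembly R64. The scripts were tested on simulated data. Replicate numbers were not treated as pairs: the deviations of same-numbered libraries from their group means correlated at r = 0.03 for percentiles and r = 0.0042 for positions over 438 loci.

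Among loci with 1 assigned gene, the named genes were the 10 with the highest mean percentile, the 6 largest rises and 6 largest falls without overlap, the 5 largest downstream and 3 largest upstream displacements, and up to 3 of the highest of each list. Other named genes and loci were picked after their values were seen. The loci and lists were chosen with earlier results of these data known. Alternatives tried were other distance limits, the better-scoring 50% of summits, leaving out each library, tandem gaps, other windows and a replicate block.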

Additional observations from a re-analysis of the deposited data

How the results depend on the processing

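Of 92 alternative values for the counts, shares and medians over kept loci, 58 stayed within the limits set for them and 34 did not. The limits were a fold limit for counts, the spread between replicates for medians and a 95% binomial interval for shares. Some of the 58 could not move, such as the medians with the replicate block, which changes only the counts. The kept loci numbered 233 with the better-scoring 50% of summits. Their share of 6 h loci was 38.6% with 0 h summits within 250 bp, 66.7% within 1000 bp and 44.1% to 63.8% without 1 library. Higher loci numbered 57 and lower loci 80 with the better-scoring 50%. Without 1 library they numbered 149 to 226 and 204 to 257, out of 515 to 568 kept loci. These counts are not directly comparable, since both the set of loci and the number of libraries that must lie apart differ. The median rank change ran from −2.73 to 0.18 points without 1 library and was −0.085 with 250 bp. The median displacement was 15 bp with 1000 bp, 18 bp with the better-scoring 50%, 18.25 bp with tandem gaps added (chosen after seeing the data) and 9 to 17 bp without 1 library. Downstream loci numbered 28 with 250 bp, 25 with the better-scoring 50%, 65 with tandem gaps and 78 to 82 without 1 library, and upstream loci 17 with 250 bp and 57 to 73 without 1 library. The share inside genes was 41.2% to 49.4% without 1 library. The replicate block compared same-numbered libraries, although no label says whether the numbers pair them. With it 146 loci were higher and 165 lower, and 52 were downstream and 36 upstream. None of the 12 named rises and falls turned round in the 48 values without 1 library. Their choice fixed this in advance, since both 6 h percentiles already lay on 1 side of both 0 h percentiles. It is no sign of robustness. Windows around genes also mattered: snoRNA genes with a kept locus numbered 17 with 100 bp, and ribosomal protein genes 13 with none, 9 of them downstream. With 2 libraries a group no permutation p can go below 0.333, a summit list holds no occupancy level, and a missing summit does not show that polymerase was absent.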
